A study of Homo sapiens with 9 samples.

Results

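Homeobox genes outside the HOX clusters were followed in SNU-398, a human hepatocellular carcinoma (HCC) cell line, by RNA-seq of 3 groups of 3 libraries. The members are 48 of the 60642 gene names in the count table, chosen by name as homeodomain transcription factors outside the HOX clusters, with EMX1 and its paralog EMX2 among them. The vector control is compared with cells that stably overexpressed EMX1-FL, the full-length form, or EMX1-X1, a splice form that ends in an alternative last exon. The cells of all groups carry the genotype label wild type, went through puromycin-resistant screening and grew in RPMI1640 with fetal bovine serum and antibiotics, and the overexpression was brought in by lentivirus. No source used here says whether each stable line was a clone or a pool of transduced cells. No label says that the 3 libraries of a group came from separate cultures, so p-values measure the spread between these libraries, which may be technical.

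The homeodomain is a DNA-binding fold of helices, and many homeodomain proteins prefer short sites with a TAAT core. The genes are best known from the embryo. EMX and OTX genes pattern the forebrain, DLX and MSX genes the face, limb and forebrain, and IRX, MEIS, PBX and TGIF genes form the TALE class, whose MEIS and PBX proteins bind DNA beside other homeodomain proteins. LIM class genes such as LHX and ISL specify neurons, SINE class genes serve muscle and sensory organs, and SATB1 and CUX1 belong to the CUT class. EMX1 itself is best known as a factor of the dorsal telencephalon.

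Promoter sequences show where the TAAT core lies near the start of the genes described next. RefSeq (GRCh38.p14) gave windows of 300 bases, from 250 before to 50 after a start, for 34 of the 48 members. NKX2-5, IRX3, IRX5, IRX6, SIX5, LHX1, BARX1, BARX2, DLX3, DLX4, DLX5, VAX2, ALX4 and EMX1 are the other 14. The letters TAAT, or ATTA on the other strand, were in 26 of the 53 promoters of members (49.06%) and in 50.22% of the 35116 promoters of all genes. The overlap of both, TAATTA, was in 2 promoters of members (3.77%), those of EMX2 and MSX2, and in 4.84% of all promoters. The promoters of that pair are printed because they hold TAATTA, and those of SATB1, IRX4 and DLX2 because the levels of these genes are described in full. Each has the outermost RefSeq start of its gene in that table, which for EMX2 and IRX4 lies inside the span of the count table's annotation. They run 5′ to 3′ on the strand of the gene, with TAAT and ATTA in capitals. A match describes letters and not a bound site. The windows are chr10:117542496-117542795 on the plus strand for EMX2, chr5:174724332-174724631 on the plus strand for MSX2, chr3:18445543-18445842 on the minus strand for SATB1, chr5:1887130-1887429 on the minus strand for IRX4 and chr2:172102851-172103150 on the minus strand for DLX2.
EMX2: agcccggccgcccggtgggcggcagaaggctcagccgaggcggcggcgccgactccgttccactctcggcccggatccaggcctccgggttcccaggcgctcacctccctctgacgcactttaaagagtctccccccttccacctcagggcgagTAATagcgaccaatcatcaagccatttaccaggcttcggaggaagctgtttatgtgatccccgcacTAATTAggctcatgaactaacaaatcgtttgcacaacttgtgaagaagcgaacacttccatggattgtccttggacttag
MSX2: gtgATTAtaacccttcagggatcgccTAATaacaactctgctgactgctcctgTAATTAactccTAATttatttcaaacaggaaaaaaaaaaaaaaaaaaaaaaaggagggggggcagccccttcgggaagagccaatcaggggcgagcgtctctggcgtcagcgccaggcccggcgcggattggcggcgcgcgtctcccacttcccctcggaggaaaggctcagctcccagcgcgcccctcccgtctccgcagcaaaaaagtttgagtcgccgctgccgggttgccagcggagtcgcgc
SATB1: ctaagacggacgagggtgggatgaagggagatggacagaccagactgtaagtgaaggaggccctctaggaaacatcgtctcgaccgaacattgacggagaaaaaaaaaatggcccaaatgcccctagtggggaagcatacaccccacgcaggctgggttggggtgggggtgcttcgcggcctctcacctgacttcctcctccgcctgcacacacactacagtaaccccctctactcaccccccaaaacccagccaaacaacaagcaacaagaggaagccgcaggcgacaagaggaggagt
IRX4: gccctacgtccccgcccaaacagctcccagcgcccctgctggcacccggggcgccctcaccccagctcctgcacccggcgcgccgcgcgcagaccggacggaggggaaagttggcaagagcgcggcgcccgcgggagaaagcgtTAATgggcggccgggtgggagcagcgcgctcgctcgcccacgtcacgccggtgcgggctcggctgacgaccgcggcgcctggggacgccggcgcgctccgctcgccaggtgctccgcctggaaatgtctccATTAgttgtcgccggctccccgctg
DLX2: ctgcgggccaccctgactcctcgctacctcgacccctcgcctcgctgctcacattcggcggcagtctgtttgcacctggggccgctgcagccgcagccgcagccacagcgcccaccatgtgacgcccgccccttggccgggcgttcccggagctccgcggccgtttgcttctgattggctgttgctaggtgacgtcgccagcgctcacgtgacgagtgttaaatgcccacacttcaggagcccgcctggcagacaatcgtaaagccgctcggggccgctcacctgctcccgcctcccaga
The EMX2 window holds 3 cores, the MSX2 window 5 and the IRX4 window 2, while no core was found in the printed windows of SATB1 and DLX2. Each TAATTA counts as 2 cores, a TAAT and an ATTA that overlap. RefSeq gave 4 promoters for SATB1 and 3 for IRX4, and these core counts cover only the printed window of each.

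Several members are neighbours in GRCh38, the build of the count table. DLX1 and DLX2 lie 9760 bases apart on chromosome 2, DLX6 and DLX5 9355 bases apart on chromosome 7, and DLX4 and DLX3 15045 bases apart on chromosome 17. The Iroquois genes form 2 clusters, IRX4, IRX2 and IRX1 on chromosome 5 and IRX3, IRX5 and IRX6 on chromosome 16. EMX1 spans chr2:72916260-72936071 on the plus strand and EMX2 chr10:117542445-117549546 on the plus strand. Counts were made per gene name over exons and without strand. The EMX1 value therefore sums EMX1-FL, EMX1-X1 and endogenous RNA, as far as the inserts match annotated exons. No exon base of 31 members lies in another gene, but 59.63% of those of SIX5, 58.86% of those of VAX2 and 30.67% of those of LHX4 do, so the counts of these 3 are uncertain.

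Most members were expressed in SNU-398. Of the 48, 41 reached at least 1 TPM (transcripts per 1000000, a level per length) in all 3 libraries of at least 1 group. The 5 members OTX2, DLX3, SIX2, BARX2 and IRX1 failed the filter on low counts, and the other 43 were tested and had reads in every library. Of those tested, SATB1 and IRX6 did not reach the 1 TPM minimum in any group. IRX4 reached it in EMX1-X1 alone, with a lowest library of 1.003 TPM, against 0.733 TPM in the control and 0.663 TPM in EMX1-FL. By mean TPM over the 9 libraries, 31 members stood at 10 TPM or more, 10 between 1 and 10 TPM, and 7 under 1 TPM. The median over the 43 members tested was 28.3 TPM and over all 18574 genes tested 13.4 TPM. The expressed members were 16 of 18 in the ANTP class, 12 of 14 in the TALE class, 7 of 7 in the LIM class, 3 of 4 in the PRD class, 2 of 3 in the SINE class and 1 of 2 in the CUT class.

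DLX5, DLX2, DLX6 and DLX1 led the list by mean TPM, while DLX4 stood at 23.5 to 41.1 TPM and DLX3 was not tested. DLX5 stood at 316 to 468 TPM over the 9 libraries and DLX2 at 166 to 418 TPM, and these ranges overlap. DLX6 at 109 to 149.8 TPM, DLX1 at 78.6 to 155 TPM, the craniofacial and bone factor MSX2 at 95.6 to 157 TPM and the cardiac factor NKX2-5 at 70.5 to 163 TPM followed, all below the lowest DLX2 library and overlapping with each other. In all, 249 genes of the table had a higher mean TPM than DLX5. Of the TALE cofactors, PBX2 stood at 67.6 to 126 TPM, TGIF2 at 54.8 to 86.1 TPM, MEIS1 at 30.8 to 58.0 TPM and PBX3 at 30.4 to 51.2 TPM. Of the LIM class, LHX2 had the highest mean and stood at 24.0 to 44.8 TPM and LHX9 the lowest mean, at 1.64 to 1.86 TPM.

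**Figure D1:**
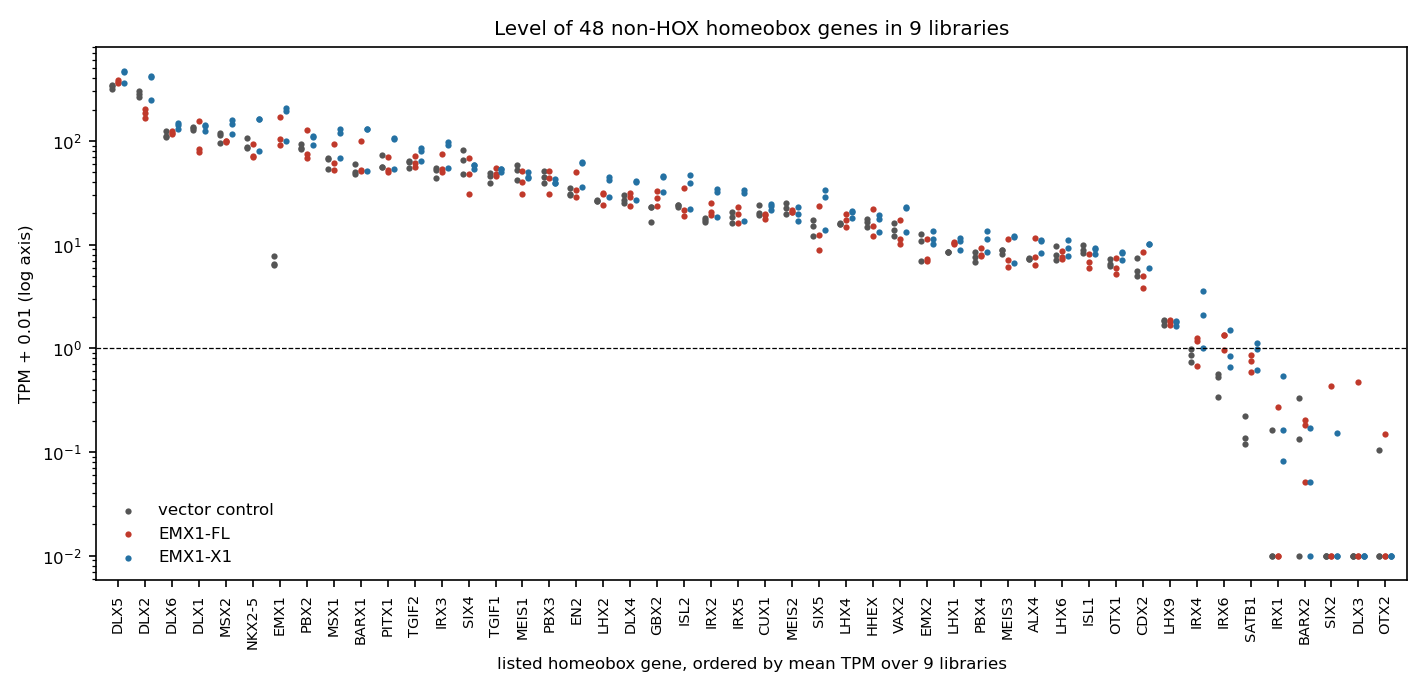
TPM plus 0.01 on a log axis for the 48 listed homeobox genes, with 1 point per library, the 3 groups in colours and the 1 TPM minimum as a dashed line. DLX5 is highest, EMX1 lies between 6.34 and 7.69 TPM in the control and between 91.6 and 205 TPM with overexpression, and 7 genes average under 1 TPM.

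The members that were not tested gave few reads. DLX3 had 0, 8 and 0 reads in EMX1-FL 1, 2 and 3 and 0 in the other 6 libraries. SIX2 had 0, 6 and 0 reads in EMX1-FL, 0, 2 and 0 in EMX1-X1 and 0 in the control. OTX2, the forebrain and eye factor, had 2, 0 and 0 reads in the control, 0, 3 and 0 in EMX1-FL and 0 in EMX1-X1. A count of 0 allows up to 3 counts, which is 0.149 to 0.198 TPM for DLX3, 0.183 to 0.244 TPM for SIX2 and 0.119 to 0.159 TPM for OTX2, by counting error alone. BARX2 had 0, 3 and 9 reads in the control, 4, 1 and 4 in EMX1-FL and 1, 0 and 4 in EMX1-X1. IRX1 had 2, 0 and 0 reads in the control, 0, 0 and 3 in EMX1-FL and 7, 2 and 1 in EMX1-X1. At this depth no difference between the groups can be shown for these 5.

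Before the comparisons, the libraries were divided into 2 sets across the groups, by the sign of a component of the counts. The first principal component of log2 CPM (counts per 1000000, scaled by edgeR) over the genes tested held 39.6% of the variance. Cluster A, on its negative side, takes in the first 2 libraries of the control, libraries 2 and 3 of EMX1-FL and library 1 of EMX1-X1, and cluster B the remaining 4. On this component, libraries 1, 2 and 3 stood at -21.8, -20.9 and 17.9 in the control and at 47.9, -47.8 and -49.9 in EMX1-FL. In EMX1-X1 they stood at -18.6, 42.5 and 50.8. Groups thus differ in position within a side, and differences within a cluster can still carry part of this axis. The clusters come from the counts and are no condition of the study. Totals ran from 21562703 to 25197970 counts per library. Of 6 hepatocyte markers, TTR and AFP had no reads in any library, and the 6 summed to 0.563 to 1.03 TPM in the control, 1.91 to 3.40 TPM in EMX1-FL and 1.14 to 2.61 TPM in EMX1-X1. The 4 mesenchymal markers summed to 749 to 1191 TPM, leukocyte markers to at most 0.452 TPM, and 5 cortical neuron markers, with NEUROD6 at 0, to 175 to 242 TPM. Only 2 of these 5 averaged 1 TPM or more in each group, so nearly all of their sum comes from 2 genes. The part of these markers in the results was not tested, and in bulk RNA fewer cells with a transcript and less of it per cell cannot be told apart.

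EMX1 RNA was higher in both overexpression groups, as a check of the labels. It stood at 9.34, 9.99 and 12.9 CPM in vector control 1, 2 and 3, at 251, 135 and 145 CPM in EMX1-FL 1, 2 and 3, and at 145, 294 and 288 CPM in EMX1-X1 1, 2 and 3. Every overexpression library lay above every control library, and the EMX1-FL and EMX1-X1 libraries overlapped. Since the counts sum both forms, these values cannot check which libraries carry EMX1-FL and which EMX1-X1. The rise was 16.5-fold with EMX1-FL (log2 fold change 4.04 ± 0.34, SE, adjusted p = 0.00121 from edgeR over all genes) and 22.5-fold with EMX1-X1 (4.50 ± 0.35, adjusted p = 0.00047). Among all genes tested, EMX1 ranked 1 by p in each. The difference between the forms did not exceed the spread of the libraries (-0.45 ± 0.30 for EMX1-FL against EMX1-X1, adjusted p = 0.618). The cluster B libraries had the higher EMX1 level in each group, by 0.41, 0.84 and 1.01 on the log2 scale in the control, EMX1-FL and EMX1-X1. Within cluster A the difference from the control was 3.85 with EMX1-FL and 3.89 with EMX1-X1, and within cluster B 4.27 and 4.49, with 1 or 2 libraries on each side.

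EMX2, the paralog of EMX1, was not called. It stood at 11.1, 9.95 and 6.88 CPM in the control, 10.1, 6.11 and 6.05 CPM in EMX1-FL and 8.70, 9.64 and 11.8 CPM in EMX1-X1, and all 3 groups overlapped. Its log2 fold change was -0.33 ± 0.27 with EMX1-FL and 0.11 ± 0.26 with EMX1-X1 (edgeR adjusted p = 0.997 and 0.907), and the second changed sign without control library 3 or EMX1-X1 library 3. In the control, EMX1 at 6.34, 6.52 and 7.69 TPM and EMX2 at 12.7, 10.9 and 6.88 TPM overlapped. EMX1 and EMX2 transcripts share no run of identical bases longer than 20, and 10.67% of the exon bases of EMX2 lie in the antisense gene EMX2OS.

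Few members passed a threshold. A gene was called at p below 0.05 with a change of 2-fold or more, without adjustment. By this rule 2.42% of all genes tested were called with EMX1-FL, and 3 of the 43 members (6.98%), which were EMX1, SATB1 and IRX6. With EMX1-X1 the share was 2.5% of all genes and again 3 members, EMX1, SATB1 and IRX4. Between the forms 1.42% of all genes and 1 member (2.33%), IRX4, were called. All calls against the control were higher with overexpression. EMX1 is the gene that was overexpressed, so its call was fixed by the design. Counts of members higher than the control, here and below, include it. With adjusted p the shares of all genes were 0.07%, 0.00538% and 0%, and by edgeR EMX1 was the member called in both comparisons with the control, while DESeq2 called EMX1 and SATB1 in both. Between the forms no gene passed with adjusted p by edgeR, where 553 genes were higher and 865 lower with EMX1-FL at an unadjusted p under 0.05. Of the members 0 were higher and 7 lower at that p, and none passed with adjusted p by DESeq2 or limma either. Counts of 1 to 3 members are too few to set against these shares, and both comparisons with the control share its libraries.

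SATB1, which organizes chromatin in T cells, was the called member after EMX1 with the largest change. It lies at chr3:18345377-18445588 on the minus strand. It stood at 0.771, 0.480 and 0.453 CPM in vector control 1, 2 and 3, at 2.71, 2.11 and 2.91 CPM in EMX1-FL 1, 2 and 3, and at 2.16, 3.41 and 3.998 CPM in EMX1-X1 1, 2 and 3. These values rest on 18, 11 and 11 reads in the control, 61, 50 and 63 in EMX1-FL and 52, 82 and 99 in EMX1-X1, and every overexpression library lay above every control library. The log2 fold change was 2.17 ± 0.36 with EMX1-FL (edgeR adjusted p = 0.0627) and 2.48 ± 0.36 with EMX1-X1 (adjusted p = 0.12), or 4.50-fold and 5.58-fold, so neither passed with adjustment in this fit. SATB1 did pass in both comparisons by DESeq2 (adjusted p = 7.02e-05 and 7.79e-06), by edgeR without the count filter (0.000526 and 5.86e-05) and by edgeR without EMX1-FL 1 (0.0332 and 0.0436). In each comparison only 4 of the 19 alternatives gave an adjusted p under 0.05, these 3 and the fit with the cluster given below. Over all 19 the adjusted p ran up to 0.365 with EMX1-FL and 0.989 with EMX1-X1. The exact permutation test gave p = 0.1 in both, the smallest that 3 libraries against 3 can give. With the library cluster as a covariate SATB1 passed as well, at an edgeR adjusted p of 0.00784 and 0.0144. The clusters were made from counts that include SATB1, so these p-values are no separate support. Within cluster A and cluster B the difference was 1.88 and 2.37 with EMX1-FL and 1.69 and 2.81 with EMX1-X1. SATB1 averaged 0.589 TPM over the 9 libraries, and on the log2(TPM + 1) scale its change was 0.58 and 0.71, below the 2-fold rule.

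The Iroquois genes IRX6 and IRX4, developmental TALE factors, were called on few reads. IRX6, at chr16:55323760-55330760 on the plus strand, had 7, 12 and 13 reads in the control, 28, 29 and 18 in EMX1-FL and 14, 18 and 34 in EMX1-X1. In CPM it stood at 0.2998, 0.524 and 0.536 CPM in the control, 1.24, 1.22 and 0.831 CPM in EMX1-FL and 0.583, 0.748 and 1.37 CPM in EMX1-X1. All overexpression libraries lay above the control, by 1.27 ± 0.47 with EMX1-FL and 0.98 ± 0.48 with EMX1-X1 on the log2 scale (edgeR adjusted p = 0.698 and 0.62), and the first was not called without control 1, EMX1-FL 1 or EMX1-FL 2 (1.05, 1.17 and 1.16).

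IRX4, at chr5:1877413-1887236 on the minus strand, stood at 0.771, 0.611 and 0.783 CPM in the control, 1.02, 0.927 and 0.508 CPM in EMX1-FL and 0.791, 2.78 and 1.66 CPM in EMX1-X1. These rest on 18, 14 and 19 reads in the control, 23, 22 and 11 in EMX1-FL and 19, 67 and 41 in EMX1-X1. The high libraries were EMX1-X1 2 and 3, both of cluster B, while EMX1-X1 1 stood next to the control. The log2 fold change with EMX1-X1 was 1.27 ± 0.48 (edgeR adjusted p = 0.568), 0.18 within cluster A and 1.36 within cluster B, and 0.76 without EMX1-X1 2. For EMX1-FL against EMX1-X1 it was -1.08 ± 0.48 (adjusted p = 0.611), with groups that overlap. With the cluster as a covariate IRX4 was called in neither (0.93 and -0.77). Between the forms the call was lost in 12 of 19 alternatives, among them 7 of the 9 that left out a library, control libraries included, with log2 differences from -1.43 to -0.575 over all 19. With EMX1-X1 it was lost in 5 of 19, among them without control 2 (1.14).

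**Figure D2:**
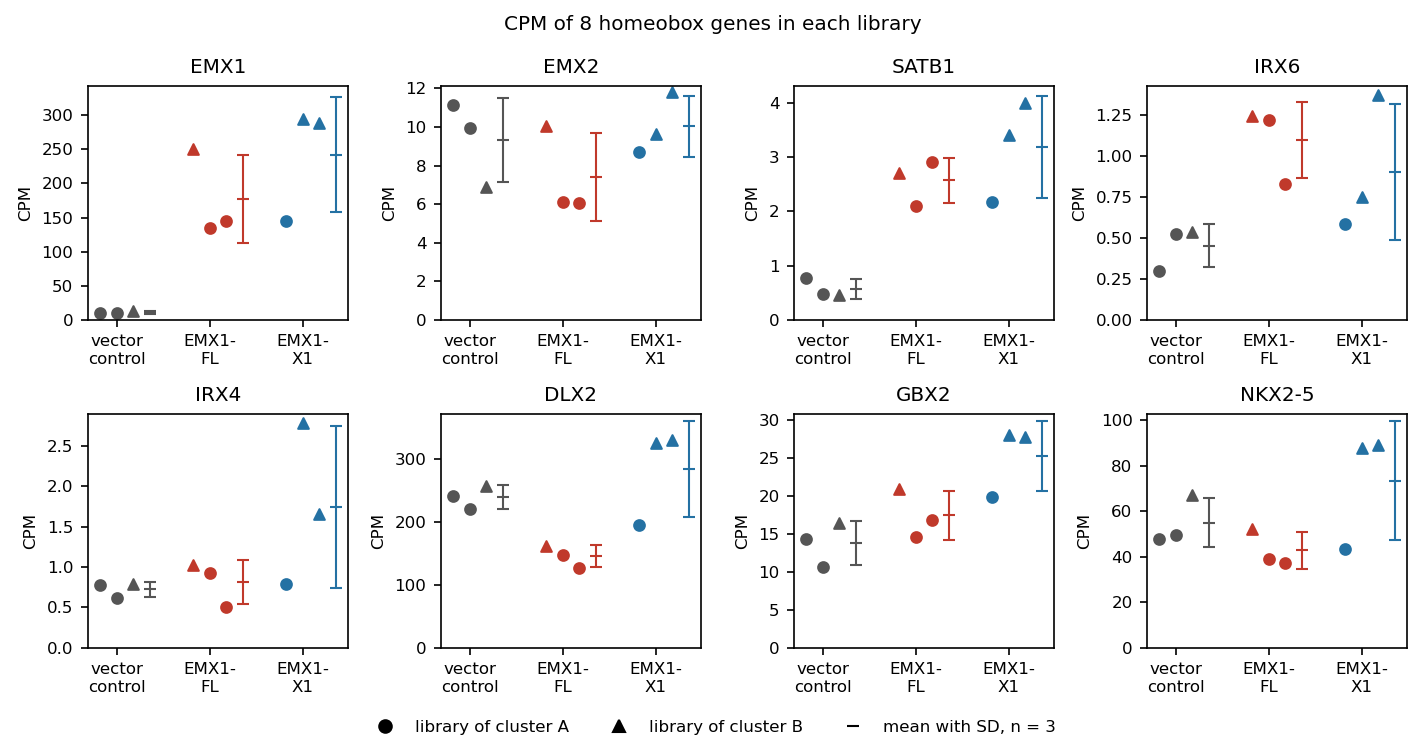
CPM of 8 homeobox genes in each library, with circles for cluster A, triangles for cluster B and the mean with SD of 3 libraries beside each group. EMX1 and SATB1 are above the control in every overexpression library, DLX2 is lowest in EMX1-FL, and IRX4 is highest in EMX1-X1 2 and 3.

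DLX2 had the lowest log2 fold change of the members with EMX1-FL. It stood at 242, 220.3 and 257 CPM in vector control 1, 2 and 3, at 163, 147 and 127 CPM in EMX1-FL 1, 2 and 3, and at 196, 326 and 331 CPM in EMX1-X1 1, 2 and 3. The EMX1-FL libraries lay below those of both other groups, and EMX1-X1 overlapped with the control. The difference was -0.72 ± 0.21 against the control (edgeR adjusted p = 0.361) and -0.97 ± 0.21 against EMX1-X1 (adjusted p = 0.611), both short of 2-fold. Without EMX1-FL 1 the difference between the forms was -1.05 and passed with adjustment (edgeR adjusted p = 0.0443), and without EMX1-X1 1 it was -1.18 and passed the unadjusted threshold alone. Without the count filter the difference between the forms was -0.975 (edgeR adjusted p = 0.00514), still short of 2-fold. Within clusters A and B it was -0.76 and -0.66 against the control, and -0.52 and -1.01 against EMX1-X1. The cluster as a covariate gave -0.73 ± 0.13 against the control and -0.81 ± 0.13 against EMX1-X1, with edgeR adjusted p of 0.01003 and 0.165. These p-values are no separate support either, since the clusters were made from counts that include DLX2.

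The other DLX genes were not called. DLX1, which lies beside DLX2, stood at 121, 132 and 147 CPM in the control, 151, 79.3 and 72.4 CPM in EMX1-FL and 117, 131 and 136 CPM in EMX1-X1, with the lower EMX1-FL values in cluster A. Its log2 fold change was -0.40 ± 0.25 and -0.06 ± 0.25 with EMX1-FL and EMX1-X1 (edgeR adjusted p = 0.997 and 0.949). Over the 19 alternatives DLX1 ran from -0.81 to -0.21 with EMX1-FL and from -0.75 to -0.15 between the forms. In each of these comparisons the adjusted p was under 0.05 in 1 alternative, and the change stayed short of 2-fold. DLX5 stood at 158, 154 and 184 CPM in the control, 183, 172 and 163 CPM in EMX1-FL and 167, 212 and 220.1 CPM in EMX1-X1, a difference of 0.06 ± 0.16 and 0.27 ± 0.16 with overlap in both. DLX6 stood at 115, 107 and 115 CPM in the control, 112, 107 and 111 CPM in EMX1-FL and 119, 135 and 130.5 CPM in EMX1-X1, and its EMX1-X1 libraries all lay above the control by 0.19 ± 0.14, while with EMX1-FL it was -0.03 ± 0.14.

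MSX2, NKX2-5, OTX1 and PITX1 had one ordering of mean levels, with EMX1-X1 highest and EMX1-FL lowest. Other members, EMX2 and DLX2 among them, had this ordering too. MSX2 stood at 71.0, 59.6 and 77.8 CPM in the control, 60.1, 58.9 and 56.4 CPM in EMX1-FL and 68.8, 91.7 and 87.8 CPM in EMX1-X1. NKX2-5 stood at 47.8, 49.4 and 67.2 CPM in the control, 52.2, 38.8 and 37.3 CPM in EMX1-FL and 43.1, 87.8 and 89.1 CPM in EMX1-X1, with EMX1-X1 1 below the control. For EMX1-FL against EMX1-X1, MSX2 differed by -0.50 ± 0.18 and NKX2-5 by -0.78 ± 0.28 on the log2 scale (edgeR adjusted p = 0.611 for both). The forebrain factor OTX1 stood at 8.52, 8.38 and 10.7 CPM in the control, 9.71, 7.71 and 6.51 CPM in EMX1-FL and 9.11, 10.7 and 10.9 CPM in EMX1-X1. PITX1, known from the hindlimb and pituitary, stood at 51.4, 53.6 and 76.3 CPM in the control, 65.8, 46.3 and 46.6 CPM in EMX1-FL and 48.6, 93.9 and 99.3 CPM in EMX1-X1. For PITX1 as well, EMX1-X1 1 lay below every control library. Against the control, OTX1 differed by -0.21 ± 0.21 and 0.15 ± 0.21, and PITX1 by -0.19 ± 0.28 and 0.42 ± 0.28, none of them called.

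Some further members are named after their values were seen. GBX2, a factor of the midbrain and hindbrain border, stood at 14.3, 10.7 and 16.4 CPM in the control, 20.9, 14.6 and 16.8 CPM in EMX1-FL and 19.9, 28.1 and 27.8 CPM in EMX1-X1, and its EMX1-X1 libraries lay above the control by 0.87 ± 0.23 (edgeR adjusted p = 0.439). BARX1 stood at 23.6, 23.7 and 31.9 CPM in the control, 47.8, 24.6 and 23.2 CPM in EMX1-FL and 24.0, 60.4 and 60.9 CPM in EMX1-X1, with the cluster B libraries high and a log2 fold change of 0.88 ± 0.36 with EMX1-X1. MSX1 at 0.67, EN2 at 0.62, IRX2 at 0.61 and IRX3 at 0.59 on the log2 scale also had an unadjusted p under 0.05 by edgeR with EMX1-X1, where 9 of 43 members were higher and 0 lower, beside 1105 higher and 401 lower of the 18574 genes tested. With EMX1-FL 3 were higher at that p and 3 lower, beside 738 and 339 of all genes. The 3 lower ones were DLX2, MEIS1 (-0.41) and ISL1 (-0.47), a motor neuron and islet factor. For MSX1 and EN2 the difference with EMX1-X1 was 0.15 and 0.08 within cluster A and 0.70 and 0.79 within cluster B.

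Counts of groups without overlap rest on few members and are given beside the share of all genes. With EMX1-FL all libraries were higher than all control libraries for 4 members (9.30%), EMX1, LHX1, IRX6 and SATB1, and for 5.36% of all genes. They were lower for 5 members (11.6%), DLX2, LHX9, MEIS2, ISL1 and CUX1, and for 5.14% of all genes. With EMX1-X1, 6 members (13.95%) were higher, EMX1, DLX6, GBX2, IRX4, IRX6 and SATB1, against 8.03% of all genes, and 2 (4.65%) lower, LHX9 and PBX3, against 6.67%. Between the forms 0 members were higher with EMX1-FL, against 3.89% of all genes, and 5 (11.6%) were lower, DLX2, DLX6, MSX2, ISL1 and CUX1, against 4.49%. LHX9 shows that such a count needs no large change, since it differed from the control by -0.11 and -0.13 only.

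The members as a list leaned one way with EMX1-X1. A log2 fold change above 0 was found for 35 of 43, with a median of 0.27 beside 0.01 for all genes tested. With EMX1-FL it was 17 of 43, with a median of -0.06 beside 0.04. For EMX1-FL against EMX1-X1 it was 4 of 43, with a median of -0.36 beside 0.02. Over the alternatives that kept 43 members, the count above 0 ran from 32 to 37 with EMX1-X1, from 10 to 23 with EMX1-FL and from 3 to 6 between the forms. The median with EMX1-FL was 0.02 under limma on log2(TPM + 1), against 0.09 for all genes, so its sign depends on the setting. By class, 14 of 16 ANTP members and 10 of 13 TALE members were above 0 with EMX1-X1, and 6 of 16 and 6 of 13 with EMX1-FL.

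Families differed in where they stood. The 5 IRX genes tested ran from 0.46 to 1.27 with EMX1-X1, with a median of 0.61, and had a median of 0.18 with EMX1-FL. Within cluster A the differences with EMX1-X1 were 0.04 for IRX2, 0.12 for IRX3, 0.18 for IRX4, -0.15 for IRX5 and 0.46 for IRX6. Within cluster B they were 0.74, 0.60, 1.36, 0.60 and 0.83 in the same order. The 5 DLX genes had medians of -0.07 with EMX1-FL and 0.25 with EMX1-X1, and the 5 LHX genes 0.01 and 0.20. The 3 MEIS genes had medians of -0.19 and -0.21, and the 3 PBX genes -0.06 and 0.15. These medians describe the families and carry no test.

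**Figure D3:**
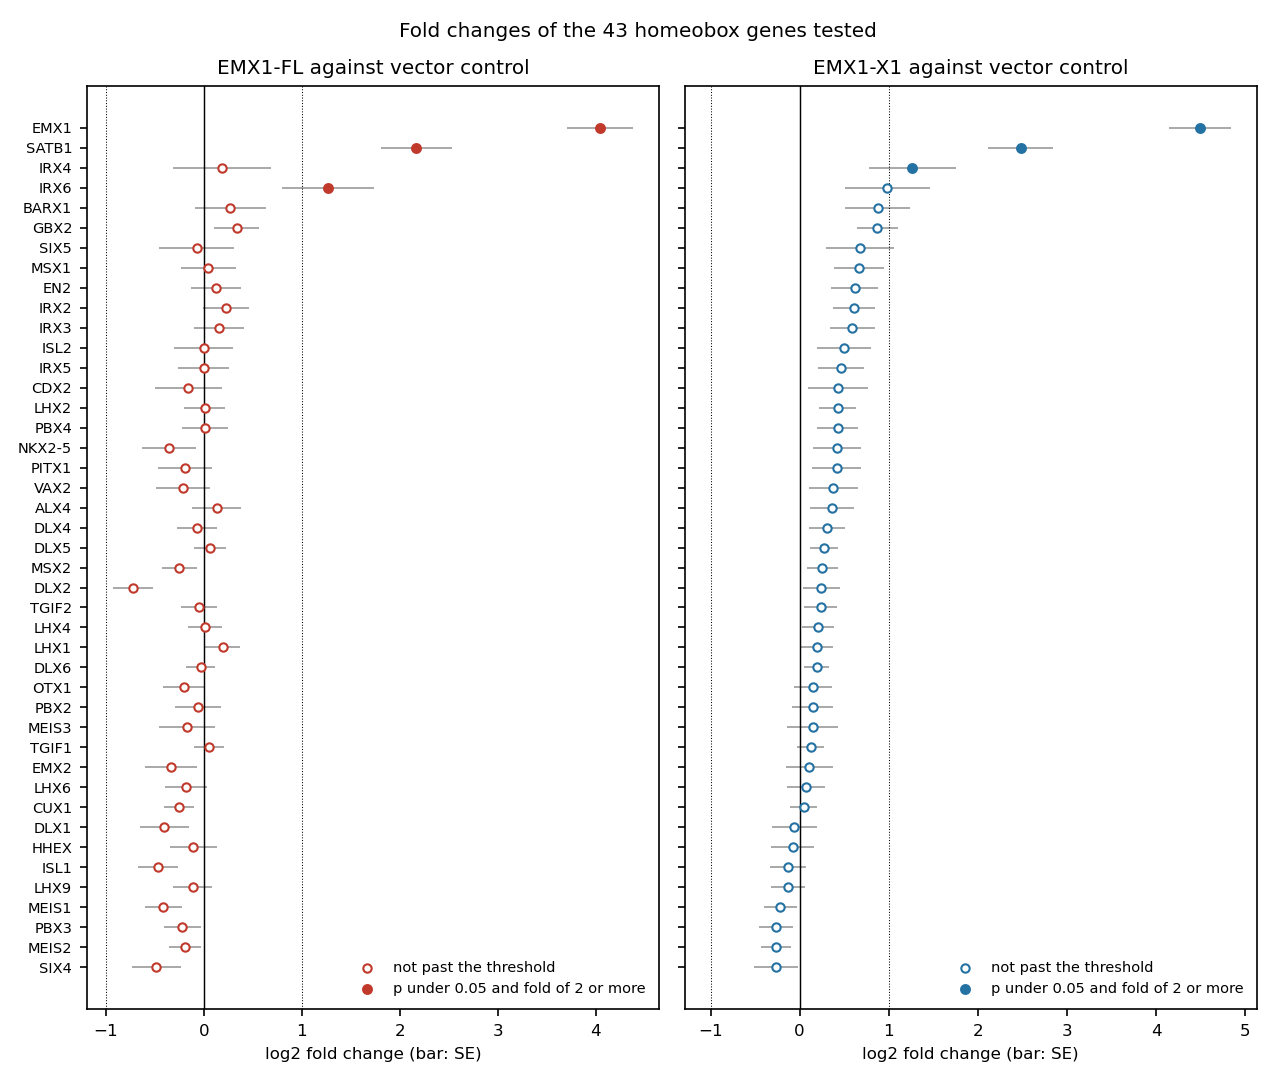
Log2 fold change with SE for the 43 members tested, with EMX1-FL and with EMX1-X1 against the vector control. Filled points are the calls, EMX1, SATB1 and IRX6 with EMX1-FL and EMX1, SATB1 and IRX4 with EMX1-X1, and 35 of 43 points lie above 0 with EMX1-X1.

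The members also moved with the library clusters. Within each group separately, the cluster B mean was above the cluster A mean for 34 of 43 members in the control, 33 in EMX1-FL and 38 in EMX1-X1, with medians of 0.18, 0.30 and 0.49 on the log2 scale. For all genes tested the shares were 50.4%, 51.2% and 49.1%. In all 3 groups 28 of 43 members (65.1%) were higher in cluster B, beside 29.9% of all genes, and 3 (6.98%), SIX4, MEIS1 and PBX3, were lower, beside 29.8%. BARX1 was higher by 0.43, 1.00 and 1.33 in the control, EMX1-FL and EMX1-X1, and SIX5 by 0.21, 1.22 and 1.16. No test is given, since the clusters were made from counts that include these genes.

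EMX1-X1 has 2 libraries in cluster B and the other groups 1 each. In EMX1-X1, 31 of 43 members (72.1%) had both cluster B libraries above every control library, beside 28.2% of all genes tested. EMX1-X1 1 was within or below the control range for 25 of these members (80.6%) and for 71.5% of such genes overall. This count was chosen after the values were seen. With the cluster as a covariate 32 of 43 members were above 0 with EMX1-X1 (median 0.16), 18 with EMX1-FL (median -0.08) and 3 between the forms (median -0.27). This covariate holds only the side of the component and not the position on it. It therefore cannot show what would be left once that axis is fully accounted for. Base composition went with the clusters as well. The median GC content of the longest transcript was 56.4% for the 43 members and 48.1% for all genes tested, 57.3% for the genes higher in cluster B in all groups and 40.7% for those lower. The 28 members higher in cluster B had a median of 59.4% and the 3 lower ones 41.9%. The part of base composition in these results was not tested.

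**Figure D4:**
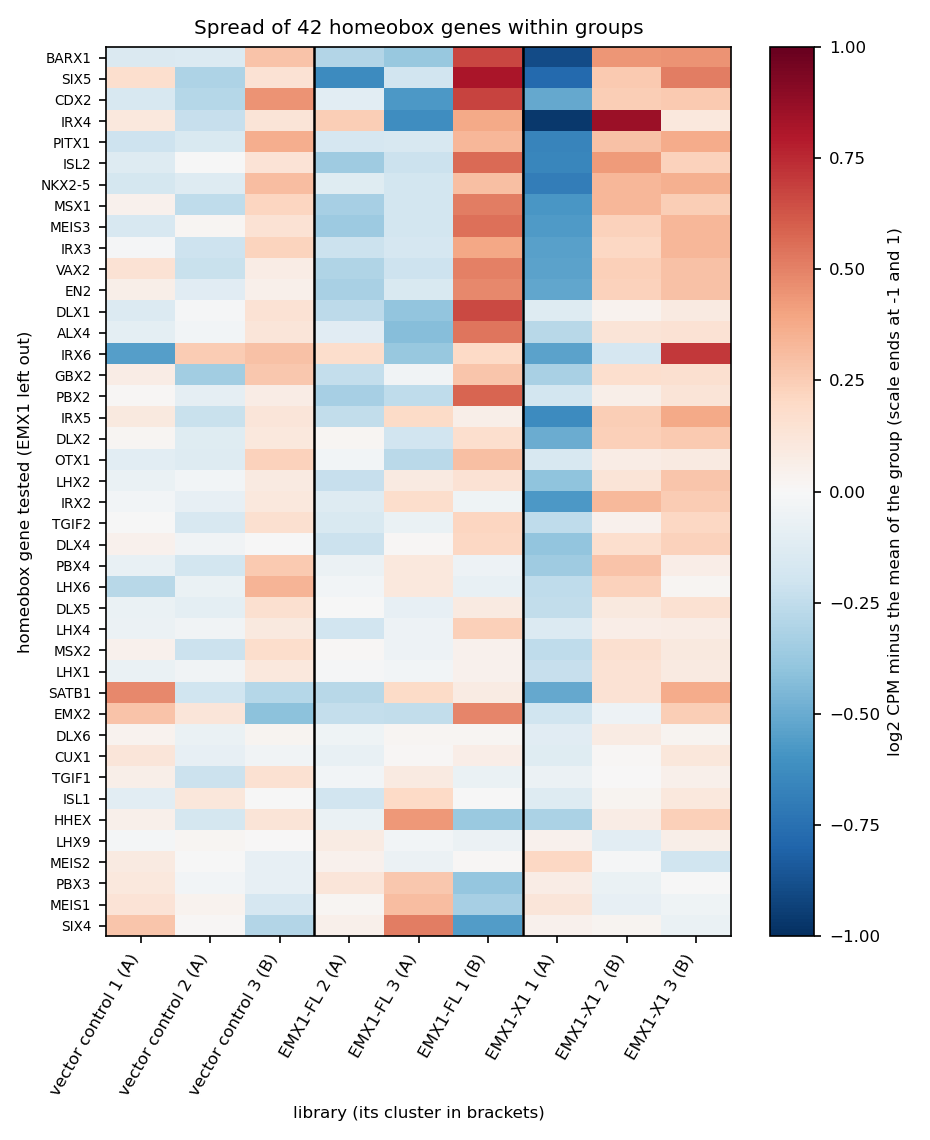
Log2 CPM of each library minus the mean of its group for 42 members, with EMX1 left out. Genes are ordered by their mean difference between clusters, and the cluster B libraries are high in the upper rows, such as BARX1 and SIX5, and low in the lowest rows, such as SIX4, MEIS1 and PBX3.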

How the data were processed

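SNU-398 libraries were assigned to groups from their titles. The raw counts per gene name and the log2(TPM + 1) table are as the authors deposited them. TPM recomputed from counts and gene lengths differed from the table by at most 4.98e-06 on the log2 scale. The count header gives featureCounts 2.0.1 and Ensembl release 99, without strand. The labels' notes give featureCounts 2.0.6, STAR, fastp and bcl2fastq 2.1.7, and the study's methods RSEM. Genes were filtered by filterByExpr and tested over 9 libraries with edgeR 4.0.16 (R 4.3.3, TMM, quasi-likelihood test, group alone) and Benjamini-Hochberg adjustment over 18574 genes. DESeq2 1.42.0 and limma 3.58.1 (pseudocounts 1 and 0.1) were alternatives, as were size factors, filters, the 6 libraries compared, the replicate number, the cluster and each library left out. The code was tested on simulated data. GC content came from GENCODE 29, and tables and plots from Python 3.11.15. Members and lists were chosen with earlier results of these data known. The named genes are EMX1, EMX2, OTX1, PITX1, DLX5, the 6 members with the highest mean TPM, those past the unadjusted threshold, and those without overlap in the same direction, by 0.58 or more on the log2 scale, in both overexpression groups. Of the other homeobox genes, those past the unadjusted threshold and the 5 highest in mean TPM are named, except 1 result that is not reported here.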

Additional observations from a re-analysis of the deposited data

How the results depend on the processing

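EMX1 passed with adjusted p in all 19 alternatives of both comparisons with the control, at 3.70 to 4.18 with EMX1-FL and 4.18 to 4.76 with EMX1-X1 on the log2 scale. Members past the adjusted threshold were EMX1 and SATB1, 2 in place of 1, in both comparisons under DESeq2, without the count filter and with the cluster as a covariate, and 1 to 2 with each library left out (2 without EMX1-FL 1). The cluster comes from the counts tested, so the fit with it is no separate support. With limma on log2(TPM + 1), 1 member passed the unadjusted threshold in each, and 142 and 177 genes in all. Without the count filter 947, 962 and 686 of all genes passed with EMX1-FL, with EMX1-X1 and between the forms, and with 10 counts in every library 217, 214 and 121, which is fewer genes tested (IRX6 was then not tested). Between the forms limma on log2(TPM + 1) gave 107 genes, and 0 members passed with both limma settings, with the 6 libraries compared and with the cluster. With each library left out, members past the unadjusted threshold ranged from 2 to 6 with EMX1-X1 and from 0 to 5 between the forms, those with adjusted p between the forms from 0 to 2, and all genes from 296 to 902 with EMX1-X1 and from 126 to 1125 between the forms. The 6 came without EMX1-X1 1, where BARX1, GBX2 and IRX6 were added, and the 5 without EMX1-FL 1 (BARX1, CDX2, DLX2, IRX4 and SIX5), where DLX2 and SIX5 passed with adjusted p. The lowest counts of all genes came without EMX1-X1 2 (296) and EMX1-X1 3 (126), and the highest without EMX1-X1 1 (902) and EMX1-FL 1 (1125). Between the forms all genes were 722 without EMX1-X1 1 and 153 without EMX1-X1 2. The cause was not tested.

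Uncalled values changed sign: DLX6 with EMX1-FL was 0.064 and DLX1 with EMX1-X1 0.044 under both limma settings. With each library left out, IRX4 with EMX1-FL ran from -0.002 to 0.428, EMX2 with EMX1-X1 from -0.087 to 0.256 and DLX1 with EMX1-X1 from -0.124 to 0.004.

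Replicate numbers did not pair the libraries, with mean correlations of -0.135, 0.110 and -0.352 between libraries with the same number. With the replicate block, 0 members passed the unadjusted threshold between the forms, and IRX4 with EMX1-X1 was 1.18 and not called. The values of SATB1 rest on 11 to 99 reads per library and those of IRX4 and IRX6 on 7 to 67.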

Other observations

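Among 138 other homeobox genes outside the HOX clusters, 77 were tested, and few were called. With EMX1-FL 3 passed the unadjusted threshold (3.90%, beside 2.42% of all genes), namely ONECUT1 at 1.16 ± 0.31, PROX1 at 1.95 ± 0.59 and ZEB1 at 1.22 ± 0.53 on the log2 scale. With EMX1-X1 6 passed (7.79%, beside 2.5%), namely PKNOX2 at 1.72, NKX2-3 at 1.14, HMX1 at 1.06, RAX at 1.04, POU3F3 at 1.92 and PROX1 at 1.63 ± 0.59. None passed between the forms by edgeR, where 0 of the 77 were higher and 12 lower with EMX1-FL at an unadjusted p under 0.05, beside 553 and 865 of the 18574 genes tested, and none passed with adjusted p in any comparison. PROX1, a factor of liver and lymphatic development, had 0.142 ± 0.0768 TPM in the control, 0.609 ± 0.338 TPM in EMX1-FL and 0.486 ± 0.112 TPM in EMX1-X1 (SD, n = 3).

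CERS2, ADNP, HMX1 and HMX3 were among the 5 highest of these genes by mean TPM. CERS2, a ceramide synthase with a homeobox-like domain, had 156 ± 10.6 TPM in the control, 137 ± 4.37 TPM in EMX1-FL and 165 ± 11.2 TPM in EMX1-X1. ADNP had 120.3 ± 7.51 TPM in the control, 116 ± 27.8 TPM in EMX1-FL and 103 ± 18.2 TPM in EMX1-X1. HMX1 had 51.7 ± 3.46 TPM in the control, 58.8 ± 39.3 TPM in EMX1-FL and 116 ± 54.8 TPM in EMX1-X1, and HMX3 had 67.5 ± 2.11 TPM in the control, 67.1 ± 6.03 TPM in EMX1-FL and 90.2 ± 19.1 TPM in EMX1-X1. Median log2 fold changes over the 77 genes were 0.02 with EMX1-FL, 0.31 with EMX1-X1 and -0.26 between the forms.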
